A study of Arabidopsis thaliana with 4 samples.

Results

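The 100 genes described here are those whose transcripts read highest on one wild type array and one knockout array of Arabidopsis seedlings, against the other array of each group. Transcript levels were measured on 4 Affymetrix ATH1 arrays, on which a set of short probes (a probe set) reads each transcript. The arrays hold total RNA of whole Arabidopsis thaliana seedlings of the Col-0 accession at developmental stage 1.02, raised on 1/2 MS10 medium under a daily light period of 16 h, at 80% humidity and 20 °C. The wild type group has 2 arrays (wild type 1 and wild type 2), and the knockout group, labelled complete for CDB1 and also Col-0, has 2 (knockout 1 and knockout 2). The series title names a protein that binds Polycomb, and the study set these groups side by side. The labels do not tell whether replicates were grown separately, so the spread that p-values measure here may be technical. They give neither the allele of the knockout nor how many plants were pooled. The level of CDB1 itself is not reported here, because the annotation used does not pair that name with a probe set.

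The members were chosen by measured values. Of 22746 probe sets other than controls, 13513 name exactly 1 gene, and 8682 of these had a mean MAS5 signal of at least 20 over the 4 arrays. MAS5 signals are intensities in arbitrary units, and the medians of the 4 arrays over all probe sets were alike at 47.9 to 50.6. The 8682 are called eligible genes here, and a gene such as nad1 counts once for each of its eligible probe sets. On 2150 of the 8682, or 24.8%, both wild type 2 and knockout 1 read above both wild type 1 and knockout 2. The opposite order was seen on 1561, or 18%. The members are the 100 of the 2150 with the largest difference between the mean of wild type 2 and knockout 1 (the high pair) and the mean of wild type 1 and knockout 2 (the low pair), on the log2(signal + 16) scale. The order of the 4 arrays and the size of the pair difference are therefore the basis of the choice, and they are given as a description with no test. The 100 probe sets name 100 different genes, of which 91 are nuclear, 8 are encoded by the plastid genome and 1, nad4, is mitochondrial.

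An Arabidopsis cell holds 3 genomes. Plastids and mitochondria keep small genomes of their own, whose genes encode subunits of the photosynthetic and respiratory complexes, parts of the organelles' ribosomes and a plastid RNA polymerase. All other subunits of these complexes are encoded in the nucleus and imported. Plastid genes are mostly transcribed together in long precursors that are cut and spliced afterwards, and most plastid transcripts carry no long poly(A) tail. A 3' expression array such as ATH1 is read after labelling that usually starts from poly(A).

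The pair difference of the members ran from 0.518 to 1.096 on the log2 scale, with a median of 0.58, while its median over all 8682 eligible genes was 0.03. The median signal of the members was 48.5 on wild type 1, 80.2 on wild type 2, 85.1 on knockout 1 and 49.2 on knockout 2. Over the eligible genes the same medians were 75.7, 78.1, 76.3 and 75.8, so the 4 arrays as a whole had like levels. In whole seedlings, fewer cells of a type and less RNA per cell cannot be told apart. Of the members, 47 differed by at least 1.5-fold between the pairs and 2, rpl20 and ndhF, by at least 2-fold. The highest array was wild type 2 for 63 members and knockout 1 for 37. The lowest was wild type 1 for 57 and knockout 2 for 42, with 1 tie. The step from wild type 1 to wild type 2 had a median of 0.63 on the log2 scale, and that from knockout 2 to knockout 1 had a median of 0.55. The wild type step was the larger one in 62 members.

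**Figure D1:**
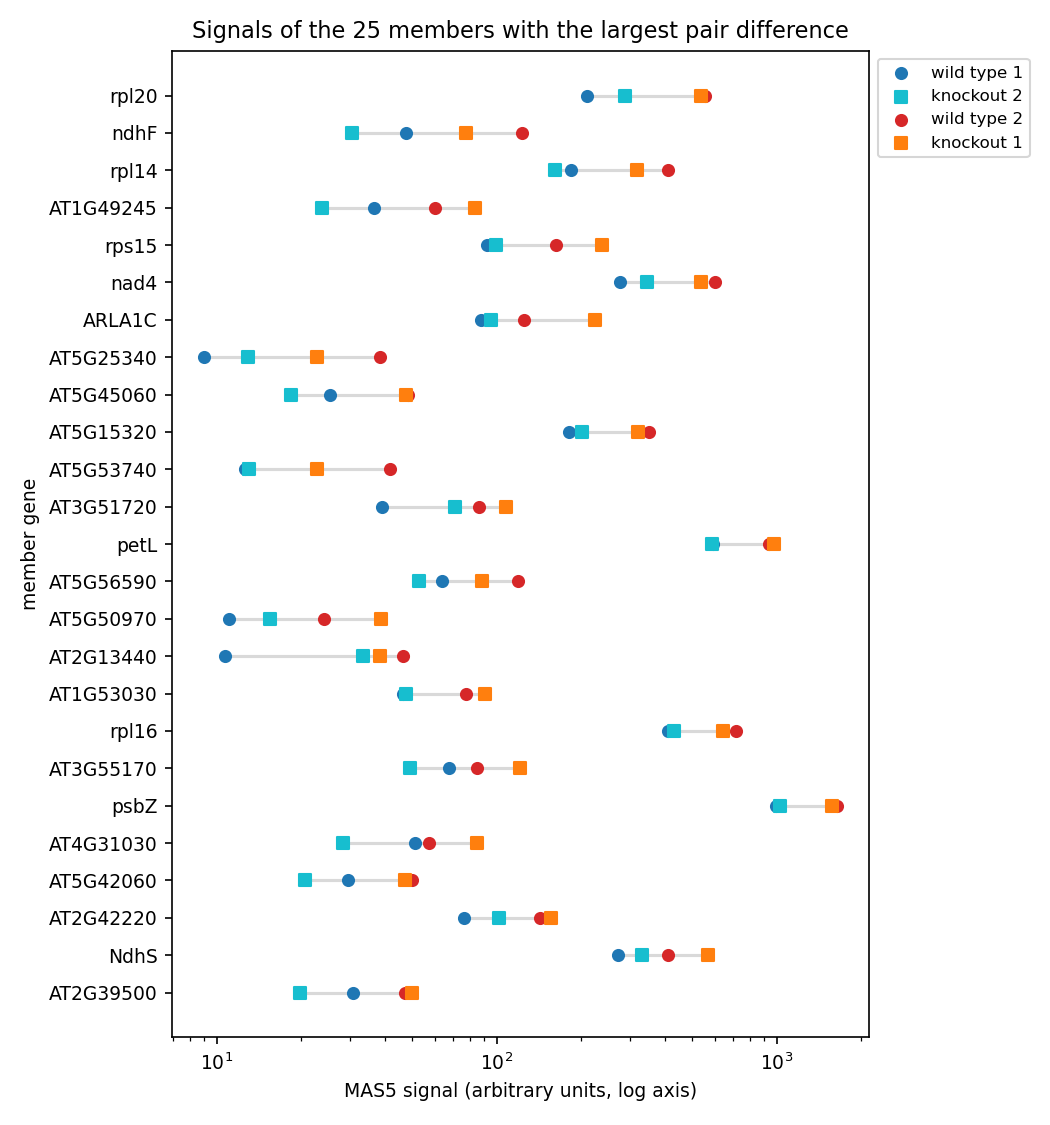
MAS5 signal (arbitrary units, log axis) of the 25 members with the largest pair difference, 1 row per gene. Each point is 1 array; circles are wild type, squares are knockout, blue tones are the low pair and red tones the high pair. The red and orange points lie to the right of both blue points in every row, which is how the genes were chosen, and the order within a pair changes from gene to gene.

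The plastid-encoded members led the list at the pseudocount of 16 used here. A top 100 chosen by the same rule held 4 plastid genes with a pseudocount of 1 and 12 with one of 64, in place of 8. rpl20, which encodes a protein of the large subunit of the plastid ribosome, had signals of 210.9 on wild type 1, 552.4 on wild type 2, 535.5 on knockout 1 and 286.3 on knockout 2. Its difference of 1.096 was the largest of all members, and the lower of the high arrays was above the higher of the low arrays by 0.87 on the log2 scale. rpl14, for another protein of the large subunit, read 184.4, 407.9, 316.0 and 162.2 in the same order of arrays. rpl16, the gene beside rpl14 in the plastid genome and also a large subunit protein gene, read 410.3, 714.2, 642.9 and 428.8. rps15, for a protein of the small subunit, read 92.5, 162.3, 237.3 and 99.1, so that its highest array was knockout 1 and not wild type 2. In all 4 ribosomal protein genes the low arrays lay close together relative to the step up to the high arrays.

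The 4 other plastid members encode parts of the photosynthetic membrane. ndhF, a subunit of the NDH complex that carries electrons around photosystem I, read 47.6 on wild type 1, 122.8 on wild type 2, 77.8 on knockout 1 and 30.4 on knockout 2. petL, a small subunit of the cytochrome b6f complex, read 591.9, 936.2, 976.2 and 586.2. psbZ, a small subunit of photosystem II, read 991.2, 1648.8, 1579.6 and 1030.2. psaJ, a small subunit of photosystem I, read 1416.7, 2145.0, 2241.6 and 1538.8. For petL, psbZ and psaJ the arrays of a pair were nearly equal, while for ndhF all 4 arrays were apart and both wild type arrays were above the knockout array of the same pair. In the plastid genome 1 gene lies between psaJ and petL, and 2 lie between psaJ and rpl20. The genes in between are not members, so this stretch is not on the list as a block.

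The plastid genome as a whole did not share this order of the arrays. Of 69 eligible plastid genes, 20 (28.99%) had both wild type 2 and knockout 1 highest, against 24.8% of all eligible genes, and 30 (43.48%) had both lowest, against 18%. The pair difference had a median of -0.05 and ran from -1.52 to 1.096. Among the 100 genes with the largest difference in the opposite direction (the reverse list), 10 were plastid-encoded. Ribosomal protein genes held 4 of the 8 plastid members: 8 of 15 had the order of the members and 4 of 15 the reverse, with a median of 0.24. None of the 6 plastid ATP synthase genes had the members' order and 4 had the reverse. The complexes were split within themselves. Beside ndhF, the NDH genes ndhG and ndhH were on the reverse list: ndhG read 246.2 on wild type 1, 143.9 on wild type 2, 108.1 on knockout 1 and 270.4 on knockout 2, and ndhH read 78.4, 27.7, 29.5 and 63.7. psaA, which encodes a reaction centre protein of photosystem I, had a difference of -1.35 against 0.57 for psaJ. rpoB, for a subunit of the plastid RNA polymerase, had the lowest value of the plastid genes at -1.52. Nuclear photosynthesis genes stood closer to 0. Of 9 that were eligible, PSAE-1, a photosystem I subunit, had the members' order with a difference of 0.19, and RCA (Rubisco activase), PSBW (photosystem II) and PORB (chlorophyll synthesis) had the reverse, from -0.35 to -0.10.

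**Figure D2:**
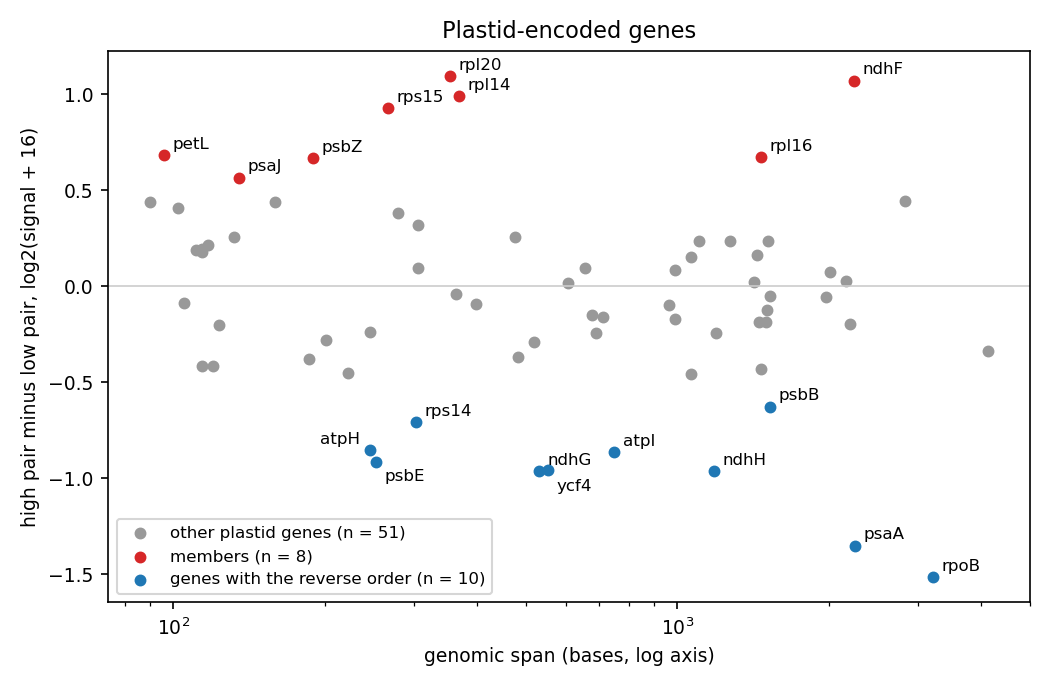
Pair difference (high pair minus low pair, log2(signal + 16)) of the 69 eligible plastid-encoded genes against genomic span (bases, log axis); each point is 1 gene. The 8 members (red) have a median span of 310.5 bases and the 10 genes of the reverse list (blue) one of 652.5 bases, and both colours occur among short and long genes.

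Among the nuclear members with a name beyond a locus number, NdhS has a place in one of these complexes. Members known by locus number alone were not looked up for such a place. It encodes a subunit of the chloroplast NDH complex that takes part in binding ferredoxin, and it read 270.2 on wild type 1, 409.1 on wild type 2, 566.5 on knockout 1 and 331.4 on knockout 2. Its difference was 0.66. The other 7 eligible nuclear genes named for NDH subunits or for chlororespiratory reduction did not reach the list. Of these, 2 had the members' order and 1 the reverse, against 24.8% and 18% of all eligible genes. Members are 1.15% of all eligible genes, so the absence of these 7 from the list says little.

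The mitochondrial member nad4 encodes a core subunit of respiratory complex I. It read 275.8 on wild type 1, 603.0 on wild type 2, 537.6 on knockout 1 and 344.2 on knockout 2, a difference of 0.85. Of 16 other probe sets, which read 11 mitochondrial genes, 8 had the members' order and none the reverse, against 24.8% and 18% of all eligible genes. Their difference was above 0 in 11, with a median of 0.19 and a lowest value of -0.26. orfX, at 0.51, and cox1, a core subunit of cytochrome c oxidase, at 0.49, were just short of the list. cox1 read 150.5, 275.9, 205.0 and 180.2 in the order wild type 1, wild type 2, knockout 1 and knockout 2. Probe sets of a single gene did not move alike: 5 probe sets of nad1, another complex I gene, ran from -0.26 to 0.50. Chromosome 2 carries a nuclear copy of much of the mitochondrial genome near its centromere, and 2 members, AT2G07719 and AT2G07751, have locus numbers in that region. Their probe sets are of the kind that reads several near-identical transcripts, so their signals cannot be assigned to the nuclear copy alone. AT2G07751 read 197.7, 321.8, 282.9 and 187.0, and AT2G07719 read 26.5, 49.3, 39.5 and 18.8. Of 11 other eligible genes with locus numbers of that region, 1 had the members' order and 1 the reverse.

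Most nuclear members have a locus number as their symbol in the annotation used here, as do 81 of the 100 members. AT2G35310 among them has a further name, REM23, as a synonym. AT1G49245 led the nuclear members, with 36.6 on wild type 1, 60.0 on wild type 2, 84.0 on knockout 1 and 23.7 on knockout 2 and a difference of 0.93. ARLA1C, a small GTPase of the ADP-ribosylation factor-like family, read 88.1, 124.9, 224.0 and 95.2, so that knockout 1 stood above the 3 other arrays. AT5G15320 read 181.9, 348.6, 320.3 and 202.3. In that gene both arrays of each pair were close together, as in rpl16. At the dim end of the leading 25, AT5G25340 read 9.0, 38.2, 22.9 and 12.9, and AT5G53740 read 12.6, 41.5, 22.8 and 13.0. AT5G45060 read 25.5, 48.2, 47.5 and 18.5. AT3G51720, at 38.9, 86.4, 107.6 and 70.8, and AT2G13440, at 10.7, 46.2, 38.2 and 33.4, were among the leading members in which knockout 2 lay nearer to the high arrays than to wild type 1. The other nuclear genes of the leading 25 (AT5G56590, AT5G50970, AT1G53030, AT3G55170, AT4G31030, AT5G42060, AT2G42220 and AT2G39500) had differences of 0.66 to 0.68.

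Among the named nuclear members further down, several act in signalling, transport and membrane traffic. RALFL32 encodes a RALF-like peptide, a family of secreted signalling peptides that act at the cell surface, and read 197.1 on wild type 1, 300.5 on wild type 2, 260.7 on knockout 1 and 160.5 on knockout 2. Of the 6 other eligible RALF-like genes 4 had the members' order and none the reverse, where 24.8% and 18% of all eligible genes did. The genes of the family with an annotated span had a median of 889.5 bp, and 43.14% of the shortest nuclear genes (78 to 1153 bp) had this order. AT4G14020, the gene next to RALFL32 on chromosome 4, is also a member and read 212.4, 329.9, 296.0 and 195.3. CML43, a calmodulin-like calcium sensor, read 26.7, 62.4, 65.5 and 49.3. Of the 5 other eligible CML genes 1 had the members' order, against 24.8% of all eligible genes, so this count says little. TMT3, a sugar transporter of the vacuole membrane, read 24.1, 28.7, 35.1 and 9.6, and NET1B, of a family of actin-binding proteins, read 97.6, 126.4, 118.1 and 61.9. For TMT3 and NET1B the low value of knockout 2 made most of the difference.

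AtSec20, named for a SNARE protein of traffic between the Golgi and the endoplasmic reticulum, read 78.8 on wild type 1, 125.8 on wild type 2, 127.6 on knockout 1 and 88.1 on knockout 2. SNF7.1, also called VPS32, a subunit of the ESCRT-III complex that shapes endosomal vesicles, read 68.5, 120.4, 108.8 and 80.0. ty2, which encodes thioredoxin Y2, a redox protein of the plastid, read 187.9, 258.4, 312.5 and 196.5. ASPGB1, an asparaginase, read 24.5, 46.3, 33.3 and 19.4. In these 4 genes both high arrays stood clear of both low arrays, by 0.28 to 0.45 on the log2 scale. AT2G35310, also called REM23 (reproductive meristem 23), read 13.7, 36.5, 22.8 and 16.5, with 3 of its arrays near or below the minimum mean signal of 20.

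Not all members were well separated. The gap between the lower high array and the higher low array had a median of 0.41 on the log2 scale, and it was under 0.1 in 3 members. AT5G18150 read 209.8 on wild type 1 and 210.7 on knockout 1, AT2G06820 read 19.6 and 19.9, and AT2G05600 had 35.4 on knockout 1 and 34.8 on knockout 2. AT2G05600 had steps of 1.06 within wild type and 0.02 within the knockout on the log2 scale, so its difference came from the low value of wild type 1, 11.8. AT5G18150 and AT2G06820 had steps within both groups, and 1 low and 1 high array of opposite groups nearly met. Many members were dim: the mean signal was under 50 in 35 and at least 100 in 35, and wild type 1 read below 20 in 19 members and knockout 2 in 20. At the limit of the list, AT1G21770 and AT5G48220 were the last inside, both at 0.52, and AT2G13970 and AT3G51710 the first outside, also at 0.52. AT3G51710 is the neighbour of the member AT3G51720.

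The members were short genes. This property was not used to choose them. The genomic span of a gene, from its start to its end in the RefSeq annotation of TAIR10.1 with introns counted, had a median of 1494 bp in the 91 nuclear members (quartiles 1045.5 and 2365.5 bp). Over all 8575 eligible nuclear genes the median was 2299 bp (quartiles 1672 and 3224.5 bp). In the 90 nuclear genes of the reverse list it was 3741 bp. Below the median of all eligible genes lay 73.63% of the members and 18.89% of the reverse list. Spans under 1000 bp were found in 20.88% of the members, 6.71% of all eligible genes and 3.33% of the reverse list, and spans over 4000 bp in 5.49%, 13.41% and 44.44%. AT2G07751 (357 bp), AT4G31030 (383 bp) and AT5G42060 (568 bp) were the shortest nuclear members. NET1B (6574 bp), AT2G13440 (5575 bp) and AT1G67420 (5436 bp) were the longest, so long genes occurred on the list as well. No test is given, because genes of the same 4 arrays are not independent samples.

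**Figure D3:**
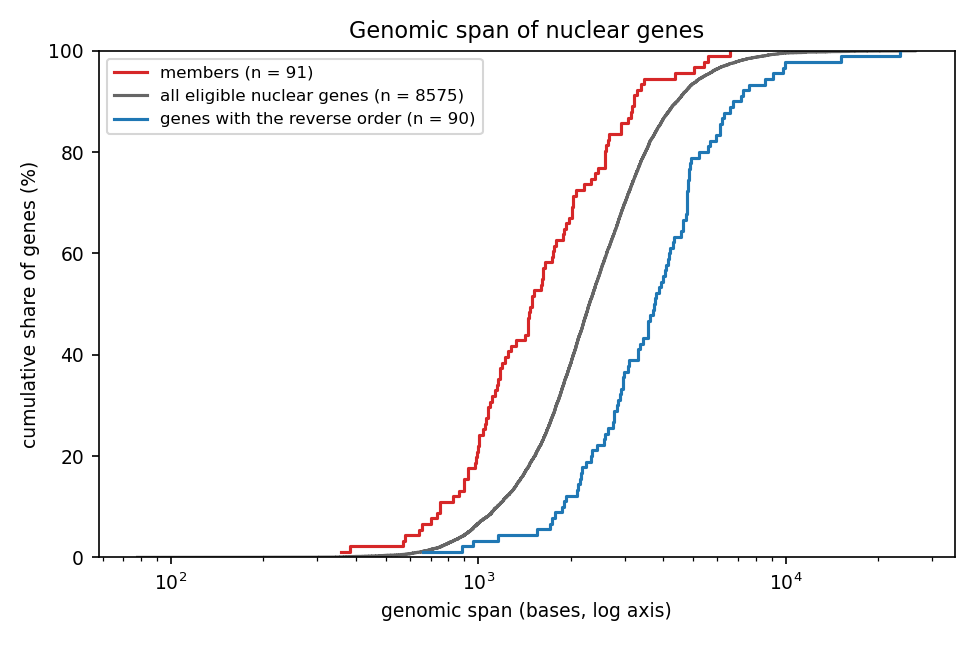
Cumulative share (%) of nuclear genes against genomic span (bases, log axis) for the 91 nuclear members, all 8575 eligible nuclear genes and the 90 nuclear genes of the reverse list; each line is 1 set of genes. The members' line lies to the left of that of all genes and the reverse list's to the right, with medians of 1494, 2299 and 3741 bases.

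The members were shorter than all eligible genes within each class of brightness as well. With the eligible nuclear genes split into 3 equal classes by mean signal (limits at 50.8 and 115.67), the median span of the members was 1520 bp in the dim class, 1786 bp in the middle class and 1180 bp in the bright class. The medians of all eligible genes in these classes were 2301, 2448 and 2159 bp, and those of the reverse list 3672, 4551.5 and 3035.5 bp. Within the list, a larger pair difference did not go with a shorter gene: the 45 nuclear members with the larger differences had a median of 1496 bp and the other 46 one of 1474.5 bp.

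The relation ran through all eligible nuclear genes. In the shortest of 10 equal groups by span, with spans of 78 to 1153 bp, 43.14% of genes had the members' order of arrays and 4.19% the reverse. In the longest group, with spans from 4430 bp upwards, the shares were 14.92% and 34.97%. The median pair difference fell from 0.15 in the shortest group to -0.07 in the longest. The shortest group held 31 members and the longest 4. With the members and the reverse list left out, the share with the members' order still went from 41.16% in the shortest group to 15.1% in the longest. Across 8575 genes of these 4 arrays, the pair difference and the log2 of the span had a Pearson correlation of -0.32. The correlation was -0.25 for wild type 2 minus wild type 1, -0.27 for knockout 1 minus knockout 2, and -0.01 for knockout minus wild type. The difference between the genotypes thus had hardly any relation to span, with medians of -0.05 to 0.01 over the 10 groups, while both steps within a genotype had one. These correlations are across genes, which share their arrays and are not independent replicates.

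**Figure D4:**
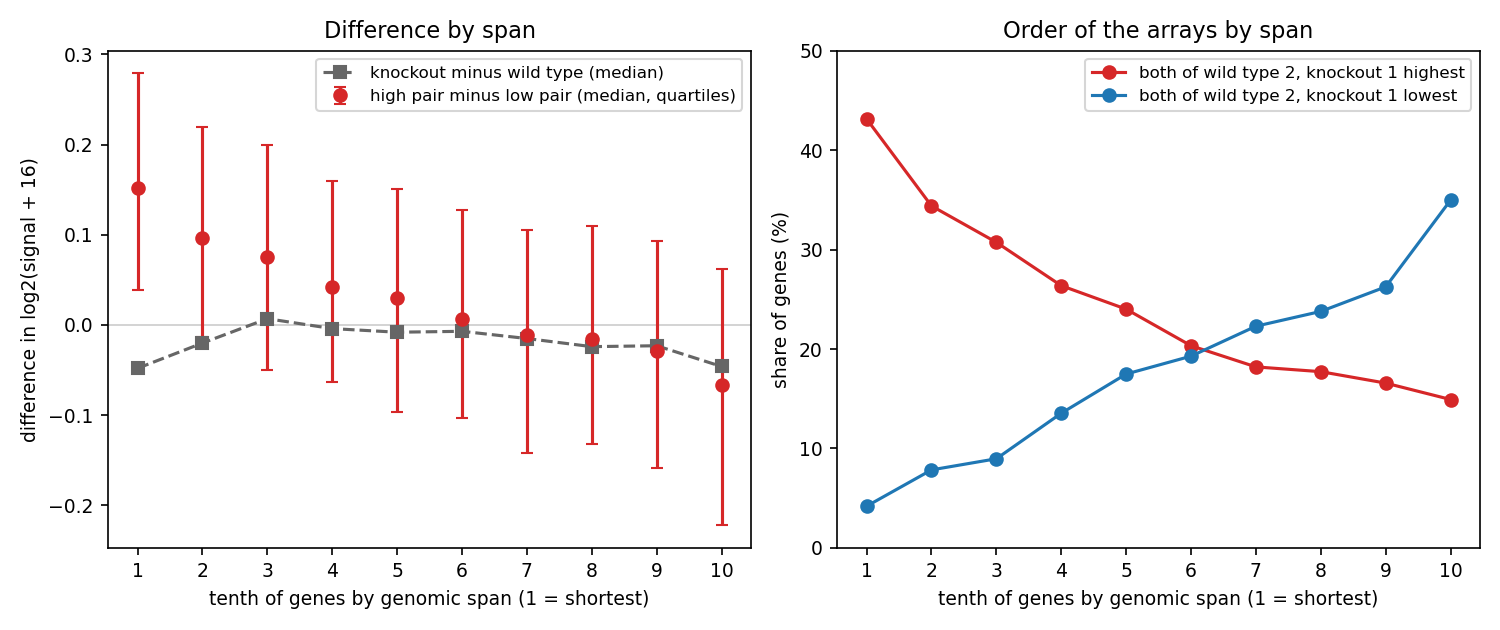
Left, median difference in log2(signal + 16) against the 10 equal groups of the 8575 eligible nuclear genes by genomic span (1 is the shortest), for the high pair minus the low pair (red, bars are quartiles) and for knockout minus wild type (grey squares). Right, share of genes (%) with both of wild type 2 and knockout 1 highest (red, 43.14% falling to 14.92%) or lowest (blue, 4.19% rising to 34.97%).

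Control probe sets that read the 3' and the 5' end of the same transcript moved with the pairs in part. The ratio of 3' to 5' signal of actin was 1.83 on wild type 1 and 1.90 on knockout 2, against 2.51 on wild type 2 and 2.49 on knockout 1. For GAPDH it was 1.13 on each of the low arrays, against 1.34 and 1.28 on the high arrays, and an older GAPDH set read 1.13 and 1.16 against 1.64 and 1.64. The ubiquitin ratio did not follow the pairs, with 1.66 and 1.67 on the low arrays and 1.90 and 1.57 on the high arrays. Nor did the older actin and ubiquitin sets. The older actin set had the largest ratios, 9.42 on wild type 1, 7.24 on wild type 2, 5.01 on knockout 1 and 4.85 on knockout 2. A high ratio means that less signal came from the part of the transcript far from the poly(A) tail. The part of these ratios in the members' pattern was not tested. The probe set for 25S ribosomal RNA read 556.1 on wild type 1, 841.1 on wild type 2, 2196.0 on knockout 1 and 992.3 on knockout 2, which is not the members' order. The probe set for 5S ribosomal RNA read 191.8, 41.7, 72.5 and 81.2, with both high arrays below both low arrays, and its part in the pattern was not tested either.

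The gene lists for growth, hormone, clock, light and stress pathways hold 844 symbols, of which 99 were paired with a probe set and 79 were eligible. None of the 79 was a member, and members are 1.15% of all eligible genes, so a count of 0 in so few genes says little. Of the 79, 13 (16.46%) had the members' order, against 24.8% of all eligible genes, and 11 (13.92%) the reverse, against 18%, with a median pair difference of 0.03. XTH18, a cell wall xyloglucan enzyme, came nearest to the list at 0.51, with 64.8 on wild type 1, 108.6 on wild type 2, 70.3 on knockout 1 and 49.2 on knockout 2. EXPB2, a beta-expansin that loosens cell walls, followed at 0.50, and 5 of 22 genes for expansins and xyloglucan enzymes had the members' order. None of 6 auxin response genes and none of 6 carbon starvation genes had it. The clock genes COR27 and GI stood at 0.16 and -0.16. GID1B, a gibberellin receptor, had the lowest value of the listed genes at -0.72.

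Markers of green tissue and root were read on all arrays. LHCB4.1, a light-harvesting protein, read 1518.3 to 2063.8, and RCA read 2291.6 to 2684.9. PYK10, a beta-glucosidase abundant in roots, read 2544.5 to 2966.6. EXPA7, a root hair expansin, read 28.7 on wild type 1, 50.3 on wild type 2 and 55.9 on both knockout arrays, a pair difference of 0.28, and EXPA18, also of root hairs, stood at -0.04. The pollen marker ANX1 read 0.6 to 1.6, and no probe set was paired with the seed and flower markers. Of 6 green tissue and root markers that could be read, 0 had the members' order, against 24.8% of all eligible genes. RCA and PYK10 had the reverse, as did 18% of all eligible genes, with differences of -0.18 for both. Counts in so few genes say little about tissue. Of the 28 markers listed for green tissue and 19 for root, 3 of each were paired with a probe set.

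Knockout and wild type were compared with limma across 15924 probe sets, which asks whether the members also differ with genotype. Because the members' rule puts 1 array of each group in each pair, the genotypes overlap on every member and the spread within groups is large, so this test had little room to call a member. The rule ties the genotype difference as well as that spread: each member's genotype difference must be smaller in size than its pair difference. AT5G18150, at -0.53 with a pair difference of 0.54, lay near that limit. In all, 51 probe sets (0.32%) had an adjusted p under 0.05 in limma, 27 higher in the knockout (0.17%) and 24 lower (0.151%), and none of them was a member. At an unadjusted p under 0.05, limma passed 834 probe sets (5.24%) and 2 members (2%). The median standard error was 0.24 for members and 0.16 for all tested probe sets.

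The genotype difference of the members was centred where that of other genes was. Its size is limited by the members' rule, so these medians and quartiles are a description with no test. Knockout minus wild type had a median of -0.02 on the log2 scale in the members (quartiles -0.14 and 0.07), with 45% above 0, and a median of -0.02 over the eligible genes (quartiles -0.12 and 0.09), with 44.86% above 0. AT5G18150 had the lowest adjusted p: its signal was 268.4 ± 82.8 (SD, n = 2) in wild type and 179.2 ± 44.6 (SD, n = 2) in the knockout, a log2 difference of -0.53 (SE 0.212, 95% interval -0.999 to -0.0634, limma adjusted p = 0.84). AT2G06820, an annotated pseudogene, was at -0.56 (SE 0.249, limma adjusted p = 0.933). ndhF at -0.51, AT1G34640 at -0.48 and AT1G14450 at -0.42 were the next lowest. AT3G51720 at 0.47, ARLA1C at 0.43, AT5G48490 at 0.39, NdhS at 0.37 and AT2G05600 at 0.35 were the highest. None of these 10 differences passed the test, and the interval of rpl20, which reached from -0.62 to 0.99, shows how wide they were. Leaving out an array gives no test of genotype for these genes. It leaves 1 group with its high or its low array alone, so the members' rule favours a direction without fixing it for each gene. Without wild type 1, AT1G34640 stood at -0.96, and without wild type 2, AT2G13440 stood at 0.96, each in the direction so favoured.

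**Figure D5:**
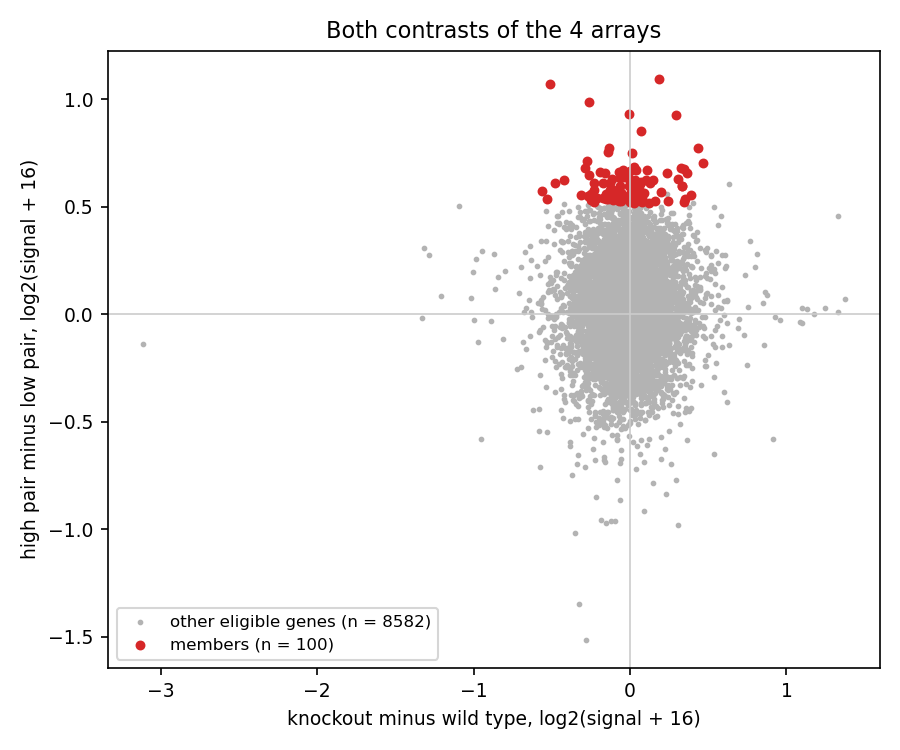
Pair difference (high pair minus low pair) against knockout minus wild type, both in log2(signal + 16), for the 8682 eligible probe sets. Each point is 1 probe set, and the 100 members are red. The members fill the top of the cloud by their choice, at 0.52 and above. They spread on both sides of 0 on the genotype axis, from -0.56 to 0.47, where the rule limits their spread.

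The members came from all 5 nuclear chromosomes. Chromosome 1 held 17% of them against 25.73% of the eligible genes, chromosome 2 held 21% against 14.78%, chromosome 3 held 18% against 20.05%, chromosome 4 held 12% against 14.58% and chromosome 5 held 23% against 23.62%. Plastid genes made up 8% against 0.79%, with 4 plastid genes at a pseudocount of 1 and 12 at 64. The reverse list held 21%, 20%, 19%, 12% and 18% on chromosomes 1 to 5, and 10% of it was plastid-encoded. The larger shares of chromosome 2 and of the plastid were thus not particular to the members. Besides RALFL32 with AT4G14020 and rpl14 with rpl16, no members were adjacent. With 3 genes between them lay AT1G53030 and AT1G53060, AT5G15320 and AT5G15360, and AT4G23870 and NdhS. AT4G23870 read 51.0 on wild type 1, 82.4 on wild type 2, 85.1 on knockout 1 and 51.0 on knockout 2. Of the members, 97 are annotated as protein-coding and 2, AT2G06820 and AT2G15520, as pseudogenes.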

How the data were processed

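The deposited table gives a linear intensity for each probe set on each array. MAS5 made these intensities for the authors, per the submitters' processing notes. Its version and settings, and the genome build of the probe design, are not given in the sources here. From there, signals were used as deposited and turned into log2(signal + 16), where the pseudocount of 16 makes the changes of dim genes look smaller. Groups (2 arrays each, from the labels) were tested by limma 3.58.1 (R 4.3.3; lmFit, eBayes with intensity trend, two-sided) on 15924 probe sets at or above the 30th percentile of mean signal (19.5), with Benjamini-Hochberg adjustment over all of them and a threshold of 0.05. With 2 arrays a group, the smallest exact permutation p is 0.333, so limma leans on the spread it shares among probe sets (prior degrees of freedom 8.82). The fit was checked on simulated data. For arrays, their number limits the precision.

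The members, the gene lists and the tests were chosen with earlier results of these data known. The genes named are the 25 members with the largest pair difference, the 2 on each side of the limit, up to 5 in each direction by genotype difference, members on a gene list (0 were), and neighbouring members. Other named members, family and organelle genes, and genes of the reverse list were chosen after their values were seen, as was the look at genomic span. Grouping by gene description was not done, because the annotation used holds no descriptions. Names come from the platform annotation, which can be old: 13513 probe sets had 1 symbol, 503 several and 8730 were not listed. Spans and neighbours are those of RefSeq on TAIR10.1, which held 99 of the 100 members. Where several probe sets named a listed gene, the brightest stood for it. Alternatives were other scalings, pseudocounts of 1 and 64, other brightness filters, eBayes without the trend, replicate blocks and leaving out each array. Samples share replicate numbers between groups, and nothing says that a number marks a shared batch.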

Additional observations from a re-analysis of the deposited data

How the results depend on the processing

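The count of probe sets called between knockout and wild type, 51, became 0 with no brightness filter (limma; 1081 had an unadjusted p under 0.05) and ranged from 20 to 87 with 1 array left out: 87 without wild type 1, 61 without wild type 2, 23 without knockout 1 and 20 without knockout 2. The lone array of a group was then assumed to vary like those of the other group. With the replicate number as a block it was 89, and the number of members called stayed at 0. The correlation of the replicate differences between the groups was -0.301. That value includes the crossed order of the arrays, so it cannot tell whether a number marks a shared batch. With the crossed pairing (wild type 1 with knockout 2), added after seeing the data, 195 probe sets and 1 member were called; these are the pairs on which the members were chosen, so that count is not independent of the choice. With 1 array left out, the members' rule favours a direction of the genotype difference. The members' median genotype difference of -0.02 then went from -0.33 to 0.30, each time with the sign that the rule favours. The median pair difference of 0.58 was 0.76 with a pseudocount of 1, 0.37 with 64, and 0.57 to 0.63 with 1 array left out. The members' order was met by 1333 genes with a minimum mean signal of 50 and by 3436 with none. The top 100 shared 58 members with a pseudocount of 1, 57 with 64, 65 with a minimum of 50, 59 with no minimum, 86 after quantile normalization and 100 after median centring. Median centring brought the shares with the members' and the reverse order to 21.47% and 21.26%, so the excess of the former rests on the scaling. The top 100 held 8 plastid genes, but 4 with a pseudocount of 1 and 12 with 64. The median span of the nuclear members was 1455 to 1691 bp over these 6 settings, chosen after seeing the data, and the correlation of pair difference and span -0.35 to -0.23. Where a value moved, the cause was not tested. The planned count of promoter motifs was not run, because no promoter sequence was used here. Signal over background limits the 35 members with a mean signal under 50.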

Other observations

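Probe sets without a single gene name could not be members. Of 7153 with a mean signal of at least 20, 1409 (19.7%) had the members' order, and 45 of them had a pair difference at or above that of the last member. The highest of them, which is unnamed here, had a difference of 1.0, with 177.1 on wild type 1, 443.9 on wild type 2, 273.4 on knockout 1 and 156.2 on knockout 2. A probe set shared by atp9, a mitochondrial ATP synthase gene, and AT2G07671 read 336.6, 514.4, 582.2 and 282.4. A probe set shared by 5 loci (AT1G56045, AT3G56020, AT3G11120, AT3G08520 and AT2G40205) read 278.2, 439.5, 476.2 and 230.9.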
